A study of Caenorhabditis elegans with 2 samples.

Results

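Regions of the transcription factor CEH-22 were described around 10 innexin genes of the nematode Caenorhabditis elegans, *eat-5*, *inx-3*, *inx-6*, *inx-1*, *inx-2*, *inx-10*, *inx-11*, *inx-13*, *unc-7* and *unc-9*. Chromatin immunoprecipitation with sequencing (ChIP-seq) recovers the DNA that a protein contacts, and each region has a summit where its signal peaks. The genes were taken by gene name from the Ensembl annotation of WBcel235 and make up 10 of the 25 innexin genes and 10 of 19985 protein-coding genes. Each gene's window ran from 5000 bp upstream of its 5' end to its 3' end, and a region belonged to the gene if its summit lay in that window. The material was whole late embryos of mixed sex from strain OP389, which carries the unc-119(tm4063) mutation and the transgene wgIs389, with CEH-22 tagged at its C-terminus by GFP and FLAG. The antibody field of the labels names ceh-22 itself, and the tissue was not dissected, so a region carries no record of the cells it came from. There was 1 group of 2 biological replicates and no second condition, so no contrast was tested, and values are set beside those of all protein-coding genes.

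Innexins are the membrane proteins that form gap junctions in invertebrates, channels through which neighbouring cells share ions and small molecules. In the pharynx, the muscular feeding pump, such coupling lets muscle cells contract together. CEH-22 is an NK-2 class homeodomain protein best known for activating pharyngeal muscle genes such as the myosin gene *myo-2*. *eat-5* is needed for synchronous contraction of pharyngeal muscles, *inx-6* couples muscle cells of the anterior pharynx, and *inx-3* is widely used in the embryo and is needed for an intact pharynx. These were the 3 genes treated as pharyngeal. Among the 7 others, *unc-7* and *unc-9* are known for coupling in the locomotor circuit, *unc-9* also in body wall muscle, *inx-1* acts in neurons and *inx-13* in the excretory canal.

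The sequences under 3 of the strongest innexin summits are shown, picked because each holds an NK-2 or a GATA site. Each reaches 100 bp to both sides of the summit, on the plus strand of ce11, from RefSeq. Capitals mark the NK-2 site TCAAGTG or the GATA site TGATAA, which reads TTATCA on the other strand.
inx-3, chrX:5997385-5997585, coding exon: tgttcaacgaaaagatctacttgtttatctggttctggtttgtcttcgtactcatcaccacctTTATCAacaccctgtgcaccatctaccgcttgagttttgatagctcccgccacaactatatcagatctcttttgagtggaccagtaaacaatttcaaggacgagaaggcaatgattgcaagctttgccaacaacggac
inx-6, chrIV:12744018-12744218, upstream, in an intron of *C36H8.1*: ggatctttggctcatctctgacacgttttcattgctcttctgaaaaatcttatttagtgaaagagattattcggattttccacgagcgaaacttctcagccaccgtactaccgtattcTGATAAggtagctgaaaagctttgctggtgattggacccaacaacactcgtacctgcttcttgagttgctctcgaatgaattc
unc-7, chrX:15132373-15132573, intron: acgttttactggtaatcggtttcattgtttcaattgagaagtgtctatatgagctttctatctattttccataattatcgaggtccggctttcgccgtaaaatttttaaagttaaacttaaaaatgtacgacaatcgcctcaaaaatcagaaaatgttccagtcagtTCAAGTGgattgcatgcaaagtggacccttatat
Of these, the unc-7 window alone held an NK-2 site. The inx-3 and inx-6 windows each held a GATA site. Not every summit of this strength held one of these sites, since the strongest *inx-13* summit (rank 1305) held neither.

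All 10 genes had pooled summits, and none had a thresholded peak. The pooled list held 19644 regions made from both replicates, and the thresholded list its 285 strongest. The deposited name of the thresholded list gives a cut by irreproducible discovery rate (IDR), a measure of agreement between replicates. The pooled list is named peaks and background, the input for that cut, so pooled summits outside the thresholded list may be background. A pooled summit lay in the window of 9272 of the 11543 protein-coding genes with windows as long as those of the 10. A thresholded summit lay in the window of 2.25% of protein-coding genes, and a count of 0 in 10 genes allows a share of up to 30%. The strongest innexin summit, in *inx-3*, had a signal value of 24.8, against 32.2 for the weakest region of the thresholded list. Signal values are the authors' own per region, on a scale not stated, and serve here to rank regions within a list. Read depth is unknown. The nearest thresholded summit lay 8.97 kb outside the window for *unc-9*, 16.6 kb for *inx-11* and between 83.6 and 647 kb for the other 8.

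Moderately strong summits were frequent in these 10 genes, which had been chosen with earlier results of these data known. For 5 of the 10 genes (*inx-3*, *inx-13*, *unc-7*, *inx-1* and *inx-6*) at least 1 summit was in the strongest 10% of the pooled list, a share of 50% with a 95% Wilson interval of 23.7 to 76.3%. The same held for 13.7% of all protein-coding genes and for 16.4% of the 11543 genes whose windows were as long as those of the 10 (6.73 to 31.9 kb). Only *inx-3* was in the strongest 5%. The last gene inside the 10% limit was *inx-6*, at 7.22% of the list counted from the strongest, and the first outside was *inx-11*, at 11.0%. The median over the 10 genes was 9.13%, against 29.5% for the genes of that length range that had a summit. No test was made across genes, since genes are not replicates. The 10 genes are no random draw, so the interval does not measure a difference from other genes. None of the remaining 15 innexin genes had a summit in the strongest 10% of the pooled list.

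**Figure D1:**
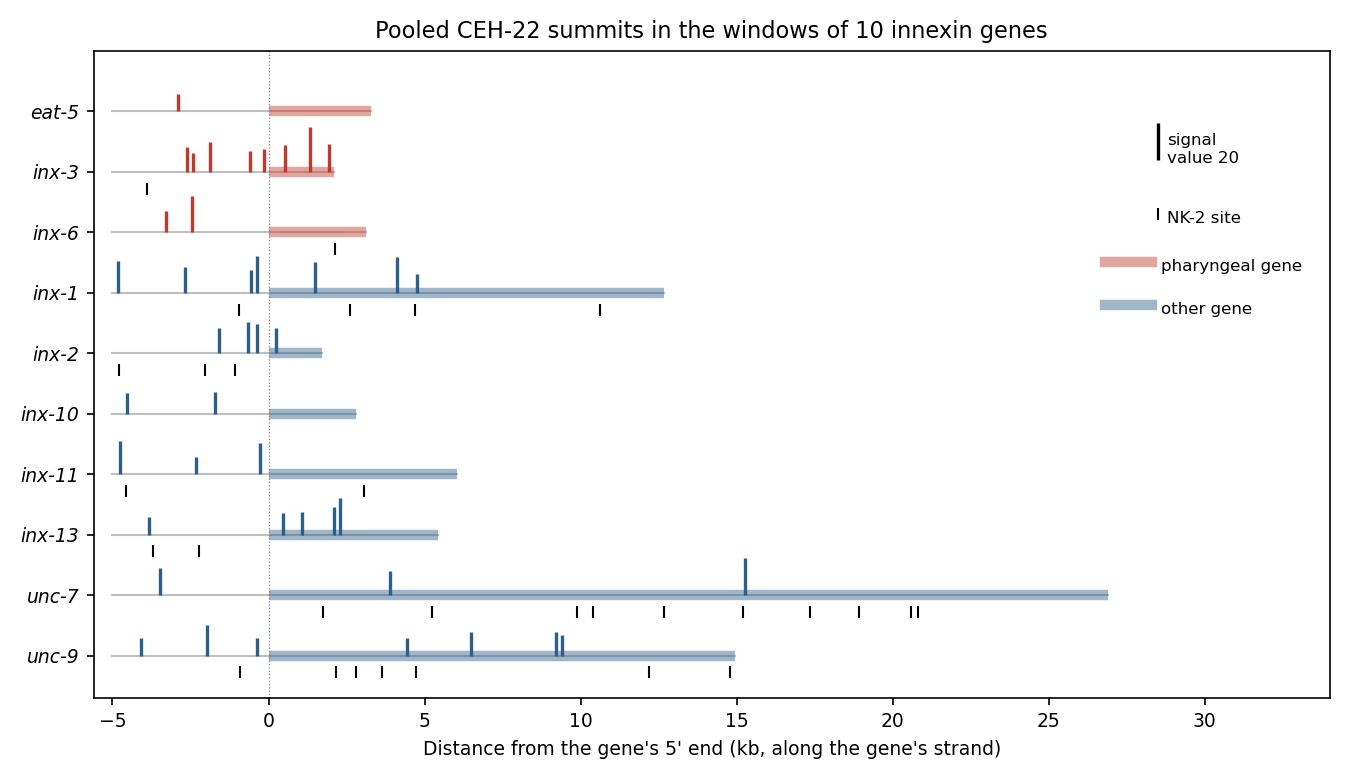
Pooled CEH-22 summits (vertical lines, height proportional to signal value) along the windows of the 10 genes, by distance from the 5' end in kb, with thick bars for gene spans and short black ticks for NK-2 sites. *inx-3* carries 8 summits in 7.09 kb, *eat-5* carries 1, and NK-2 ticks rarely stand below a summit.

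*inx-3* had both the strongest and the densest summits of the pharyngeal genes. It lies on X (5996156 to 5998243, plus strand), and 8 pooled summits fell in its window, 1.13 per kb. Only 6 of the 11543 genes in the length range, itself included, were as dense or denser. The strongest summit (X, 5997485) lay in coding exon 2 of 3, 1329 bp downstream of the 5' end. It had a signal value of 24.8 and rank 630 in the pooled list. Its counterpart had a value of 11.0 and rank 724 of 30000 in replicate 1, and a value of 13.1 and rank 2998 of 30000 in replicate 2. The 2 replicate summits were 50 bp apart. Both were in the strongest 10%, at 2.41% of the list in replicate 1 and, just inside, at 9.99% in replicate 2. The other 7 summits had values between 10.3 and 16.6. They lay 156, 591, 1871, 2419 and 2621 bp upstream, 531 bp downstream in an intron and 1946 bp downstream in the untranslated part of the last exon. The summits 2419 and 2621 bp upstream were also 867 and 665 bp upstream of the neighbouring gene *F22F4.5*. Their regions overlapped, and both had a counterpart within 200 bp in replicate 2 only. The summit 156 bp upstream had one in replicate 1 only, and that 591 bp upstream in neither. The density thus counts summits that not both replicates held.

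For *inx-6* and *eat-5* the pooled list had no summit in the gene itself. *inx-6* (IV, 12746584 to 12749721, plus strand) had 2 summits, 2466 and 3299 bp upstream, both within the neighbouring gene *C36H8.1*, which RefSeq annotates as a major sperm protein. The nearer one (IV, 12744118) had a signal value of 19.9 and rank 1418. Its replicate 2 counterpart had a value of 16.1 and rank 1125, while that of replicate 1 had a value of 3.21 and rank 20318. Replicate 2 thus placed it in the strongest 10% and replicate 1 in the weaker part of its list. *eat-5* (chromosome I, 7308643 to 7311915, minus strand) had a single pooled summit 2909 bp upstream, with a value of 9.65 and rank 18164. That summit was closer to *F13G3.10*, 545 bp upstream of its 5' end, and had a replicate 1 counterpart of rank 18450 and none in replicate 2. In replicate 1 the strongest *eat-5* summit was another, 2245 bp downstream in the gene (value 5.53, rank 6139).

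*unc-7* had 1 summit in the strongest 10%, deep in its first intron. The gene (X, 15120846 to 15147740, minus strand) has the longest window, 31.9 kb, and only 3 pooled summits, 0.0941 per kb. The strongest (X, 15132473) lay 15267 bp downstream of the 5' end, in intron 1 of the annotated transcripts that span it. It had a signal value of 20.2 and rank 1324. Its counterparts had a value of 7.001 and rank 2951 in replicate 1, and a value of 14.7 and rank 1708 in replicate 2. They lay 35 bp apart. Both were in the strongest 10%, just inside at 9.84% of the list in replicate 1 and at 5.69% in replicate 2. The remaining 2 summits, 3476 bp upstream and 3879 bp downstream, had values of 15.2 and 12.99.

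*inx-13* and *inx-1* also reached the strongest 10%, but less evenly between replicates. *inx-13* (chromosome I, 3748523 to 3753958, minus strand) had 5 summits, 4 of them in its introns. The strongest, 2306 bp downstream in intron 3, had a signal value of 20.3 and rank 1305, with a replicate 1 counterpart of rank 1041 and none in replicate 2 within 200 bp. The strongest *inx-13* summit of replicate 2 (rank 1846) lay 1062 bp downstream. The fifth pooled summit, 3817 bp upstream, lay in an intron of *inx-12*, another canal innexin. *inx-1* (X, 6943735 to 6956399, minus strand) had 7 summits, 2 of them in the strongest 10%. The summit 371 bp upstream had a value of 20.1, rank 1373, and ranks of 1608 in replicate 1 and 5927 in replicate 2. The summit 4107 bp downstream, in intron 1, had a value of 19.9, rank 1419, and ranks of 5140 in replicate 1 and 6641 in replicate 2.

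The remaining 4 genes stayed outside the strongest 10% of the pooled list. *inx-11* (V, 12487234 to 12493269, plus strand) had a summit 4772 bp upstream with a value of 18.03 and rank 2168, which lay in a coding exon of *atn-1*, the alpha-actinin gene. Its promoter summit, 288 bp upstream, had a value of 17.4 and rank 2527, with rank 1037 in replicate 1 and no counterpart in replicate 2. *inx-2* (X, 11295007 to 11296733, minus strand) had summits 655 and 374 bp upstream with values of 17.03 and 16.1 and ranks of 2772 and 3448. The nearer of these ranked 1711 in replicate 2 and had no replicate 1 summit within 200 bp. *unc-9* (X, 13201770 to 13216729, plus strand) had 7 summits with values from 9.38 to 16.7, the strongest 1966 bp upstream, at 15.2% of the list. *inx-10* (V, 9204661 to 9207477, minus strand) had 2 summits, 1705 and 4532 bp upstream, with values of 11.8 and 11.6. The farther one lay in a coding exon of *mdt-27*, a Mediator subunit gene.

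**Figure D2:**
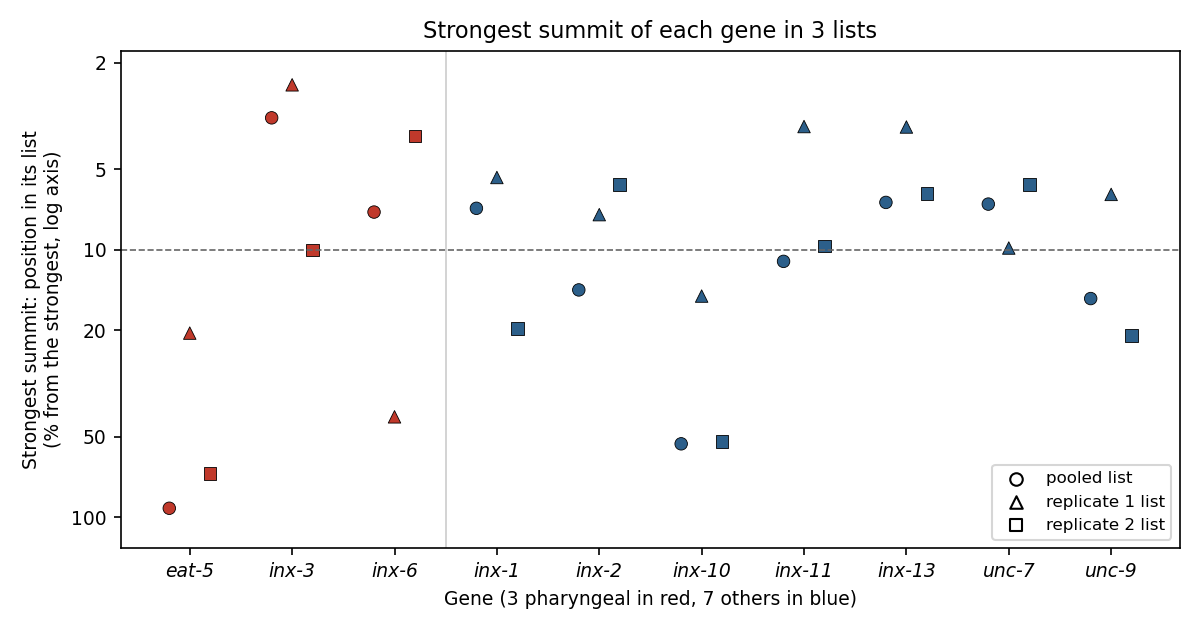
Position of each gene's strongest summit in the pooled, replicate 1 and replicate 2 lists, as percent of the list counted from the strongest (log axis, strongest at the top; the dashed line marks 10%), pharyngeal genes at left. *inx-3*, *inx-13* and *unc-7* lie at or above the line in all 3 lists, and *eat-5* and *inx-10* lie below it in all 3.

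CEH-22 is known to act in the pharynx, so the 3 genes treated as pharyngeal were set against the others to ask whether they carried stronger regions. Expression of the 7 others in the pharynx was not examined, so the split may not separate tissues. In the pooled list the median position of the strongest summit was 7.22% for the 3 pharyngeal genes and 11.0% for the 7 others. In the replicate 1 list it was 20.5% for the pharyngeal genes and 6.20% for the others, and in the replicate 2 list 9.99% for the pharyngeal genes and 9.66% for the others. The order thus depended on the list. The pharyngeal values spread over almost the whole pooled list, with 3.21% for *inx-3*, 7.22% for *inx-6* and 92.5% for *eat-5*, and those of the others ran from 6.64 to 53.1%. The groups overlapped. The mean was 34.3% in the pharyngeal genes and 16.3% in the others, opposite in order to the median. With windows that reached 2000 bp upstream, *inx-6* and *eat-5* had no summit, were counted at 100%, and the pharyngeal median became 100%, against 12.9% in the others. The pharyngeal minus other difference was thus -3.82 percentage points in the pooled list, 14.3 in replicate 1 and 0.337 in replicate 2. No test was made on these 2 replicate values. Summits were denser in the pharyngeal windows, 0.468 per kb against 0.294 in the others, and 8 of the 11 pharyngeal summits were those of *inx-3*.

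For 9 of the 10 genes, all but *eat-5*, at least 1 pooled summit had a summit of both replicates within 200 bp. The same count over genes of the length range was not made, so the 9 of 10 has no background. The strongest summit was often a different one in each replicate. In replicate 1, 7 of the 10 genes had a summit in the strongest 10%, against 23.1% of genes in the length range, and in replicate 2, 6 of 10, against 25.1%. Both lists held such a summit for 5 genes, *inx-3*, *inx-2*, *inx-11*, *inx-13* and *unc-7*, against 10.9% of genes in the length range. The strongest summits of the 2 replicates lay within 200 bp of each other for 2 of these 5, *inx-3* and *unc-7* (40%), against 38.9% of the 1253 genes in the length range with such a summit in both lists, a like share. For *inx-13*, *inx-2* and *inx-11* they were 1193, 2963 and 4490 bp apart. Of all 42 pooled summits, 21 had a summit of both replicates within 200 bp (50%, Wilson interval 35.5 to 64.5), against 35.4% of all pooled summits. Another 14 (33.3%) had only a replicate 2 counterpart, against 46.4% of all pooled summits. Only a replicate 1 counterpart was found for 6 (14.3%), against 14.8% of all, and none for 1 (2.38%), against 3.30% of all. Over the 21 shared summits Spearman's rho between the replicates' signal values was 0.16, and over the 6963 shared summits of the whole list it was 0.21. These points share libraries, and 2 *inx-1* summits 200 bp apart share their replicate counterparts, so no p is given.

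**Figure D3:**
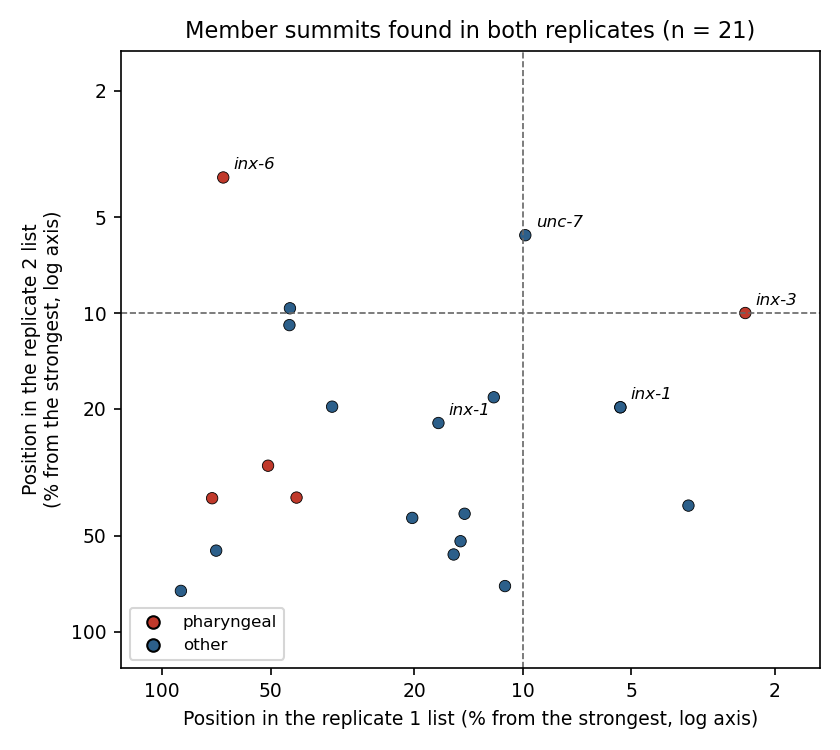
Positions of the 21 innexin summits with a counterpart within 200 bp in both replicates, replicate 1 along x and replicate 2 along y, as percent of each list counted from the strongest (log axes, strongest at top right, dashed lines at 10%). Only the *inx-3* and *unc-7* summits lie in the corner within the strongest 10% of both lists, each close to a dashed line, and the *inx-6* summit is strong in replicate 2 alone. These are 2 of the 6 innexin summits in the strongest 10% of the pooled list (33.3%). The like share over all pooled summits of that strength was 30.55%.

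The NK-2 site was not frequent under innexin summits. Of the 42 summits, 2 had TCAAGTG or TTAAGTG on either strand no more than 100 bp away (4.76%, with a Wilson interval from 1.32 to 15.8%), against 6.06% of all pooled summits. One was the strong *unc-7* summit, with TCAAGTG (X, 15132540 to 15132546) centred 70 bp from it on the plus strand, the capitals in the unc-7 sequence. The other was the weakest *inx-1* summit, 4752 bp downstream (rank 16550), with TTAAGTG. In the replicate lists the share was 7.46% of innexin summits in replicate 1 and 1.72% in replicate 2, above and below the pooled value. Shares over all summits of those longer lists are not given, so these values have no background. None of the 11 pharyngeal pooled summits had the site, a count that allows a share of up to 27.3%. The whole windows of the 10 genes held 30 NK-2 sites, 0.233 per kb, against 0.232 per kb in genes of the length range. *unc-7* had 10 and *unc-9* 7, while *inx-3* and *inx-6* had 1 each and *eat-5* and *inx-10* none. Of the 30 sites, 20 lay more than 1000 bp from any pooled summit of the same window (66.7%), against 58.4% of sites in length-range windows that held a summit. *unc-7* held 9 of the 20, and without it the count was 11 of 20 (55%). The reversed letters GTGAACT or GTGAATT, a control, were under 3 of 42 summits (7.14%), against 5.72% of all. The GATA site was under 8 of 42 summits (19.05%, Wilson interval 9.98 to 33.3%), against 15.3% of all pooled summits. It was under 5 of 11 pharyngeal summits (interval 21.3 to 72.0%), 3 of them in *inx-3*. Of the others, 3 of 31 had it (interval 3.35 to 24.9%). A match of letters is a description and does not show which factor was bound.

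Most summits lay outside coding sequence. In all, 25 of 42 lay upstream of their gene, 8 of them within 1000 bp, and 17 lay in the gene, 14 of these in introns. By annotation, intergenic DNA held 42.9% of the innexin summits (Wilson interval 29.1 to 57.8) and 33.6% of all pooled summits, and introns held 38.1% of the innexin summits and 30.7% of all. Coding exons held 16.7% of the innexin summits (interval 8.32 to 30.6) and 30.6% of all. Of the 7 coding-exon summits, 5 lay in another gene, since only *inx-3* and *inx-2* had one in their own coding exons. No innexin summit lay within 200 bp of a tRNA, snRNA, snoRNA or rRNA gene, against 1.97% of all. The median GC content around the summits was 39.6%, against 39.3% for all.

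Longer windows held a summit in the strongest 10% more often, so the innexin genes were also set beside genes of like window length. In windows of 5 to 7.5 kb, 1 of 2 innexin genes (*inx-3*) had such a summit, against 10.3% of protein-coding genes. In windows of 7.5 to 10 kb it was 1 of 3 (*inx-6*), against 14.8%, and in windows of 10 to 15 kb 1 of 2 (*inx-13*), against 21.8%. In windows of 15 to 35 kb it was 2 of 3 (*inx-1* and *unc-7*), against 31.3%. On X, 3 of 5 innexin genes had one, against 18.9% of genes in the length range there, and on autosomes 2 of 5, against 16% of them. *inx-2* was also dense, with 0.595 summits per kb, and 2.44% of genes in the length range were as dense or denser.

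The remaining 15 innexin genes had no summit in the strongest 10% of the pooled list, a count that allows a share of up to 20%. Such a pooled summit was found for 16.4% of genes in the length range. The count depended on the list. In replicate 1, 3 of the 15 (*inx-5*, *inx-8* and *inx-9*) had one in the strongest 10%, against 23.1% of genes in the length range. *inx-8* and *inx-9* shared the same replicate 1 summit. In replicate 2 none of the 15 had one, against 25.1% of genes in the length range. These 15 include *inx-12* of the excretory canal, *inx-16* of the intestine, *inx-14* and *inx-22* of the gonad and *inx-19*, which acts in asymmetry of the AWC olfactory neurons. Summits were found for 13 of them, at a median position of 46.4%, and none for *inx-16* and *inx-21*. The strongest was that of *inx-18*, with a signal value of 17.2 and a position of 13.4%, followed by 1 summit shared by *inx-8* and *inx-9* at 15.6%. Summit density was 0.326 per kb in the windows of the 10 genes, against 0.201 per kb in those of the remaining 15 and 0.209 per kb in genes of the length range. The 10 genes had been chosen with earlier results of these data known, so the contrast with the remaining innexins is a description.

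**Figure D4:**
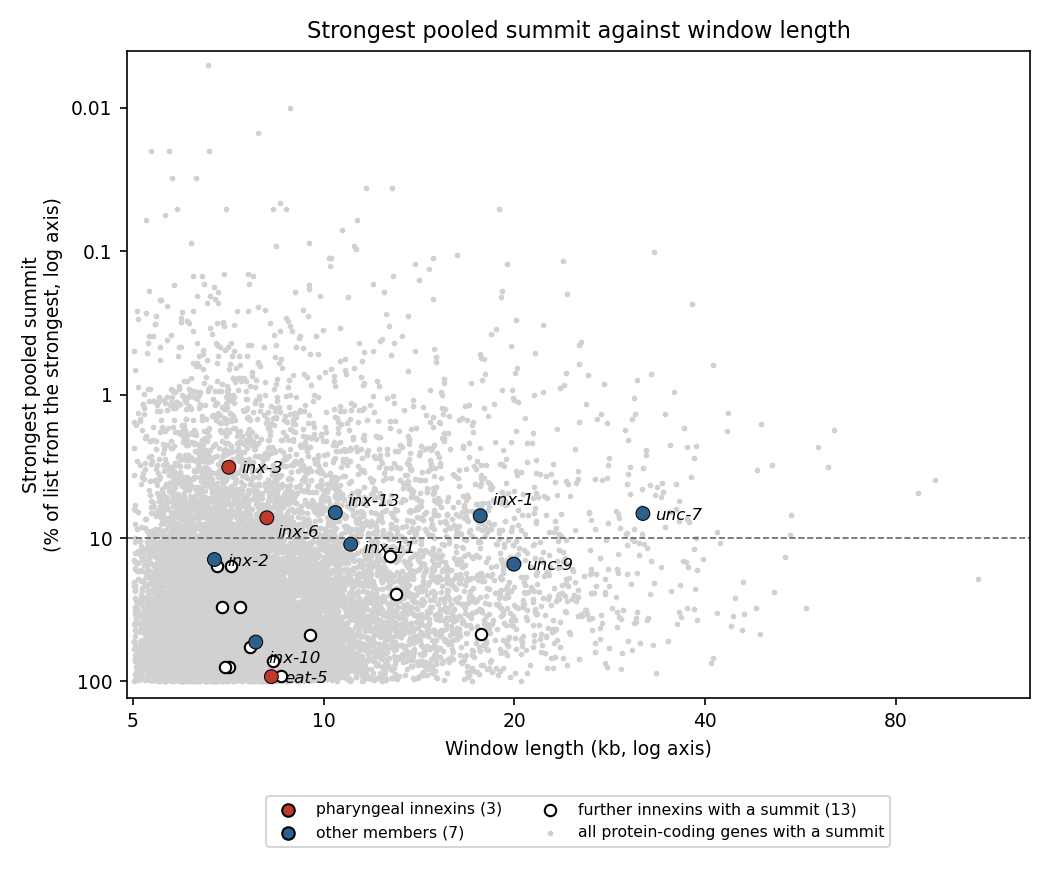
Position of the strongest pooled summit (percent of the list from the strongest, log axis, strongest at the top; dashed line at 10%) against window length in kb (log axis), for the 3 pharyngeal genes (red), the other 7 (blue), 13 further innexins (open) and all protein-coding genes with a summit (grey). Of the 10 genes, 5 lie above the line and none of the further innexins does, and many grey points lie higher than *inx-3*.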

How the data were processed

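CEH-22 ChIP-seq of 2 biological replicates was analysed from region lists on ce11, whose chromosome lengths match WBcel235. The deposited lists give each region a signal value, a score whose scale the file headers and labels do not state. No label or file header names the aligner, and the peak caller is likewise not given in the sources used. The 285 thresholded regions are the strongest of the 19644 pooled ones, and each replicate list holds 30000. The deposited names call these longer lists peaks and background, so they include background regions. Control samples, ce10 lists and signal tracks were not used here. Read depth is unknown, and intervals and limits for counts of 0 cover counting error only.

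Summits were assigned to windows from 5000 bp upstream of the 5' end to the 3' end (Ensembl release 115), so 1 summit can count for neighbouring genes. Regions were ranked by signal value within each list. Counterparts were summits within 200 bp. NK-2 and GATA letters were searched within 100 bp of a summit on both strands. All 10 genes are named with their strongest pooled summit and any in the strongest 10%, and further innexins were to be named only within the strongest 2%, which none reached. The genes and lists were chosen with earlier results of these data known. Further innexins and neighbouring genes named beyond this, and weaker summits given, were chosen after their values were seen. Assignment and motif search were tested on simulated data. Alternatives were shorter windows, nearest 5' end assignment, other limits and each replicate alone. Python 3.11.15, pandas 2.3.3, numpy 2.4.6, scipy 1.17.1 and matplotlib 3.10.9 were used. Sequence under the *inx-1* summits is not reported here.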

Additional observations from a re-analysis of the deposited data

How the results depend on the processing

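No thresholded summit fell in the 10 windows under any alternative run. None could, since no alternative reached as far as the nearest one, 8.97 kb outside the *unc-9* window. The count of genes with a summit in the strongest 10%, 5 in the main setting, was 3 when summits went to the nearest 5' end. It was 1 at a limit of 5% and 8 at a limit of 20%. Shares of all protein-coding genes under these settings are not given, so these counts have no background. The median position, 9.13%, was 13.5% with 2000 or 1000 bp upstream or without summits in other genes, 34.6% with none upstream, and 14.7% by the nearest 5' end. Leaving out a replicate gave 6.79 to 9.83%. The pharyngeal minus other difference in median position, -3.82 percentage points, was 87.1 with 2000 or 1000 bp upstream, 67.8 with none upstream, 79.6 without summits in other genes, 85.9 by the nearest 5' end and 18.04 for means, and 0.337 to 14.3 when a replicate was left out. It turned sign in all of these. Genes without a summit were counted at 100%, which did not arise for the means or for single replicates. Both pooled *inx-6* summits, 2466 and 3299 bp upstream in *C36H8.1*, dropped out with shorter windows, without summits in other genes and by the nearest 5' end. Why the sign turned was not tested beyond this. The NK-2 share, 4.76%, was 11.8% of 17 summits with none upstream and 8% of 25 summits with 1000 bp. It was 1.72% without replicate 1 and 7.46% without replicate 2. It was 2.38% within 50 bp or for TCAAGTG only, and 7.14% within 150 bp. Shares over all summits under these settings are not given, so these shares have no background. The share of summits with both replicates stayed between 35.7 and 64.3%, likewise without a background. No paired analysis was possible because all samples belong to 1 group.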
